A study of Diospyros lotus with 24 samples.

Results

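The long contigs of the bud transcriptome of Diospyros lotus, a dioecious persimmon, are the assembled sequences of at least 6000 bases. They were chosen by length alone, and 1002 of the 421126 contigs met the limit, which is 0.238% of the contigs and 3.30% of the assembled bases. All 1002 had a row in the bud mRNA count table. The shortest had 6000 bases, the longest 21792, and the median length was 7246.5 bases. Of these, 429 were shorter than 7000 bases, 133 reached 10000 bases and 17 reached 15000 bases. They were set beside the 35462 contigs of 1000 to 2000 bases, which made up 8.42% of all contigs.

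Bud primordia were taken from the offspring of a cross within the cultivar Kunsenshi, called the KK family, and from its male and its female parent tree. Bud mRNA libraries came from 1 male parent, 1 female parent, 9 male progeny (sons) and 9 female progeny (daughters). The library of son 5 held only 387 counts and was left out, so 19 libraries were used, and bud small RNA came from 1 library of each parent. All trees are the parents or the progeny of 1 cross and grew at 1 site, the labels name no treatment, and tree ages were not given in the sources used here. The sampling dates were June 17 and July 4, 2013, and the labels tie no library to a date. Neither sex nor generation can thus be told apart from sampling date. Nothing states more than 1 library per tree, and the p-values measure the spread between these libraries.

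Sex in D. lotus is genetic, with males as the heterogametic sex, and male and female flowers form on separate trees. A contig of a transcriptome assembly is a stretch rebuilt from overlapping reads, and it stands for a transcript or a piece of one. Long contigs therefore come from transcripts long enough, and sequenced deeply enough, to be joined over many reads. Plant small RNAs are short products of longer precursors that guide the cleavage of complementary transcripts or the methylation of DNA, so small RNA on a contig can come from that transcript or from a matching locus elsewhere. The files give contigs by number only, and none of the 421126 names matched the 27971 genes of the RefSeq table, so the contigs are given here by name without a function.

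The long contigs were measured at moderate levels over a narrow range. Levels are counts per 1000000 counts of the library per 1000 bases of contig (CPM per kb). The mean level over 19 libraries had a median of 1.81 CPM per kb over the 1002 long contigs (quartiles 1.11 and 3.61), against 0.985 CPM per kb over the contigs of 1000 to 2000 bases (quartiles 0.454 and 4.37). The long contigs ran from 0.332 to 31.2 CPM per kb, whereas the contigs of 1000 to 2000 bases reached 1027 CPM per kb. Between the 5th and 95th percentile the level spanned 18.7-fold among long contigs and 118-fold among the contigs of 1000 to 2000 bases. The long contigs thus lacked both the lowest and the highest levels of the shorter class.

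In each of the 19 libraries the median level of the long contigs was above that of the contigs of 1000 to 2000 bases, by 1.42 to 1.87 times. The median count per long contig was 38 to 241 across libraries, against 4 to 23 for the contigs of 1000 to 2000 bases. At most 6 of the 1002 long contigs had 0 counts in a library. A given level thus rests on more counts in a long contig, and its counting error is smaller. Library totals ran from 3527282 to 15314430 counts.

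The long contigs took 3.41% of all counts in the male and 4.02% in the female parent. In the 17 progeny they took 2.10% to 3.37% with a median of 2.65%, and both parents lay above every progeny tree. The mean share was 2.57% ± 0.237 in sons (SD, n = 8) and 2.69% ± 0.326 in daughters (SD, n = 9), and the sexes overlapped. The contigs of 1000 to 2000 bases showed the other order, with 26.5% in the male and 26.7% in the female parent, both below the 27.5% to 29.8% of the progeny. The number of contigs with any count was 198080 in the male and 211269 in the female parent, against 135804 to 259335 in the progeny, where the median was 173299. Whether this number plays a part in the shares was not tested.

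**Figure D1:**
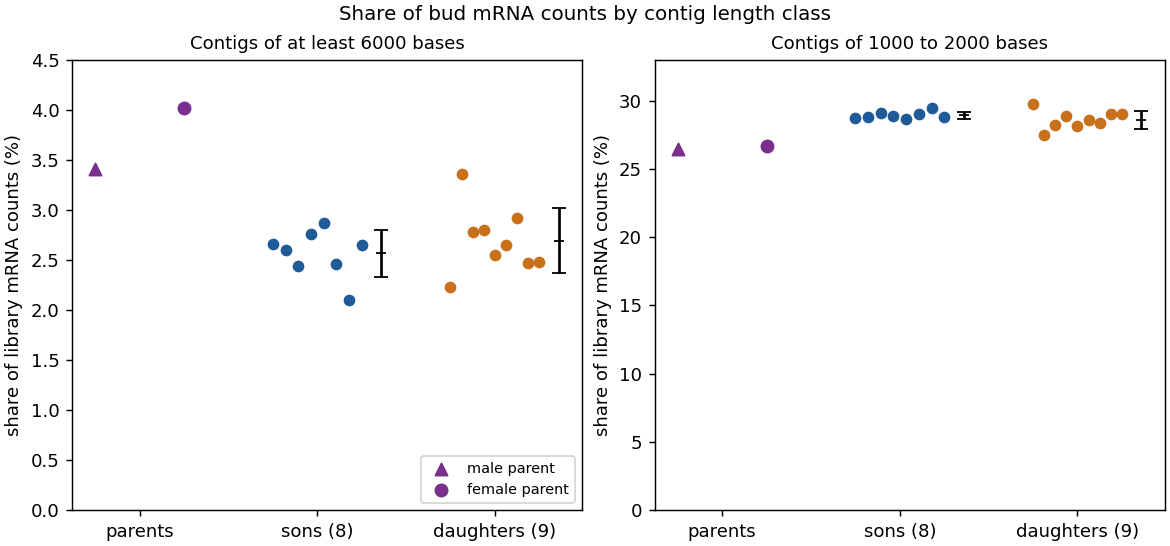
Share of library mRNA counts (%) that fell on long contigs (left) and on contigs of 1000 to 2000 bases (right) in the parents, the 8 usable sons and the 9 daughters, 1 point per library, with the mean and SD of each progeny group beside the points. Both parents lie above all progeny for the long contigs, at 3.41% and 4.02%, and below all progeny for the contigs of 1000 to 2000 bases.

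The parents differed from the progeny across a large part of the long contigs, mostly toward higher levels. In the fit over all contigs (edgeR quasi-likelihood test, 2 parents against 17 progeny with sex as a term), 503 of 1001 long contigs tested were higher in the parents, 39 were lower and 459 did not pass the adjusted threshold of 0.05. These are 50.2% higher and 3.90% lower, where 15.5% of all 63600 contigs tested were called higher and 14.4% lower. At an unadjusted p under 0.05 there were 607 long contigs (60.6%; 40.5% of all contigs tested). The median log2 fold change, parents over progeny, was 0.65 over the long contigs (quartiles 0.12 and 1.36), against -0.03 over the contigs of 1000 to 2000 bases and -0.03 over all contigs tested. In CPM, which scales by library totals, both parents lay above all 17 progeny for 340 long contigs (34.0%, with 9.22% of all contigs tested). They lay below all 17 for 46 (4.60%, with 16.0% of all contigs tested). The fit used TMM scaling, and by library totals alone its medians were 0.48 over the long contigs and -0.20 over all contigs. With no count filter the median was 0.42 over the long contigs and -0.53 over all contigs. Without the female parent the median was 0.62 over the long contigs and -0.05 over all contigs. Without the male parent it was 0.69 and -0.05, and each of these 2 fits rests on 1 parent library. The labels name 1 tree of each sex as parent, so a generation difference cannot be told apart from a difference between these 2 trees and their offspring. The sampling date of each library is not given either, so generation and date cannot be told apart. In a whole bud, a lower level can mean fewer cells of a type or less RNA per cell, and these cannot be told apart.

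Among the contigs tested, the generation difference moved step by step with contig length. The median log2 fold change, parents over progeny, was -0.16 at 200 to 500 bases, -0.10 at 500 to 1000, -0.03 at 1000 to 2000, 0.13 at 2000 to 4000 and 0.36 at 4000 to 6000 bases. It went on to 0.53 at 6000 to 8000 bases, 0.81 at 8000 to 10000 and 0.84 at 10000 bases or more. The limit of 6000 bases thus fell within a gradient. The share of contigs that passed the count filter also rose with length. It was 18060 of 300492 contigs at 200 to 500 bases and 12954 of 15723 at 2000 to 4000. At 6000 to 8000 bases it was 656 of 656. The part of the filter in the gradient was not tested. Among the 133 contigs of 10000 bases or more, 85 were called higher in the parents (63.9%) and 4 lower, against 294 higher (44.8%) and 29 lower of the 656 contigs of 6000 to 8000 bases.

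**Figure D2:**
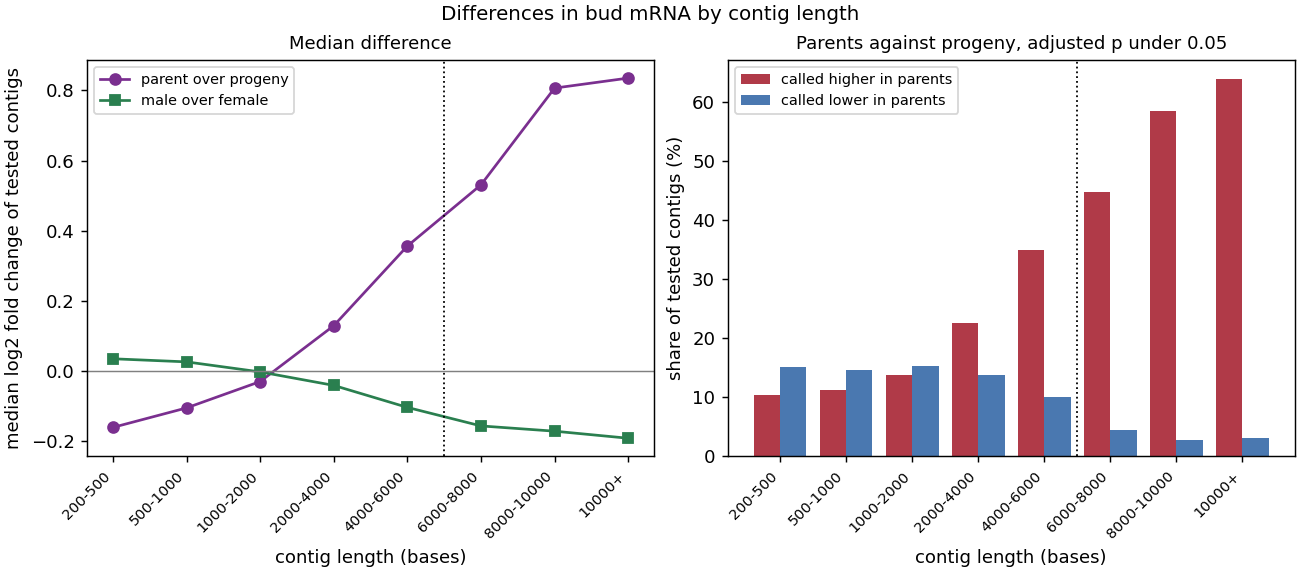
Left, median log2 fold change of the contigs tested in each length range, for parents over progeny and for males over females. Right, share of the contigs tested (%) called higher or lower in the parents at an adjusted p under 0.05, and the dotted line marks 6000 bases. The parent over progeny median goes up from -0.16 in the shortest range to 0.84 in the longest, and the male over female median goes down from 0.04 to -0.19.

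The excess in the parents was also present when tested contigs of like level were set side by side. Only contigs that passed the count filter enter here, 1001 of 1002 long contigs but 16961 of 35462 of 1000 to 2000 bases. The median level of those 35462 was 0.985 CPM per kb, so most of the shorter contigs under 1 CPM per kb were left out. The part of the filter in these medians was not tested. Among contigs of a mean level under 1 CPM per kb, the median log2 fold change, parents over progeny, was 1.36 over 189 long contigs and 0.47 over 542 contigs of 1000 to 2000 bases. At 1 to 2 CPM per kb it was 0.81 for long contigs and 0.32 for the shorter class, and at 2 to 4 CPM per kb 0.48 and 0.07. At 4 to 8 CPM per kb it was 0.19 for long contigs against -0.10, and at 16 to 64 CPM per kb 0.14 for 26 long contigs against -0.24 for the shorter class. In each of the ranges the long contigs had the higher median. Within the long contigs the difference was larger at low levels, and the shorter class also fell, from 0.47 to -0.24. The level is a mean over 19 libraries, 17 of them progeny. A contig lower in the progeny thus tends to fall into a lower range, and the part of this was not tested. Under 1 CPM per kb 141 of 189 were called higher in the parents (74.6%). At 16 to 64 CPM per kb 7 of 26 were (26.9%). In the shorter class 79 of 542 (14.6%) and 408 of 3903 (10.5%) were called higher in these ranges. Over all contigs tested it was 15.5%. In the lowest range the mean count had a median of 33.4 over the long contigs and 10.3 over the shorter class, and the part of these counts in the calls was not tested.

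Of the long contigs higher in the parents, Contig183820DeNovoAssembly (11944 bases) had the lowest p. It had 608 CPM in the male parent and 499.8 CPM in the female parent, against 103 to 176 CPM in the progeny with a median of 138 CPM. The parents stood far above every offspring, with no overlap, and the log2 fold change was 2.21 (SE 0.12, edgeR adjusted p 4.59e-12). It is also among the long contigs densest in small RNA, described later.

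The next 4 by p were lower in level and more different between the generations. Contig184147DeNovoAssembly (7469 bases) had 108 CPM in the male parent and 122 CPM in the female parent, against 8.54 to 22.1 CPM in the progeny, a log2 fold change of 3.08 (SE 0.20). Contig388096DeNovoAssembly (6381 bases) had 45.5 and 68.6 CPM in the male and the female parent, against 2.84 to 16.0 CPM in the progeny, a log2 fold change of 3.30 (SE 0.25). The highest progeny value of that contig came from daughter 2, and the other 16 progeny were at 8.72 CPM or lower. Contig189551DeNovoAssembly (6022 bases) had 19.9 and 24.5 CPM in the male and the female parent, against 1.39 to 4.68 CPM in the progeny, a log2 fold change of 3.24 (SE 0.25). Contig189033DeNovoAssembly (6575 bases) had 20.5 and 31.6 CPM in the male and the female parent, against 1.11 to 6.48 CPM in the progeny, a log2 fold change of 3.38 (SE 0.26). In all 4 the parents lay above the 17 progeny without overlap, and the edgeR adjusted p was between 2.04e-10 and 1.86e-09.

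The 39 long contigs lower in the parents included some of the most abundant ones. Contig195600DeNovoAssembly (6031 bases) had 96.3 CPM in the male parent and 114 CPM in the female parent, against 158 to 198 CPM in the progeny, a log2 fold change of -0.60 (SE 0.10, edgeR adjusted p 8.54e-05). Contig186805DeNovoAssembly (6283 bases) had 72.1 and 77.98 CPM in the male and the female parent, against 104 to 125 CPM in the progeny, a log2 fold change of -0.45 (SE 0.09, edgeR adjusted p 0.000882). These 2 changes were small, and the tight progeny values set them apart from the parents. With the library of 387 counts kept in the fit, Contig195600DeNovoAssembly had an adjusted p of 0.0500069 and Contig186805DeNovoAssembly one of 0.0908, and neither passed.

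Larger falls in the parents came from 3 other contigs. Contig184441DeNovoAssembly (6111 bases) had 1.02 CPM in the male parent and 2.60 CPM in the female parent, against 6.56 to 13.3 CPM in the progeny, a log2 fold change of -2.12 (SE 0.34, edgeR adjusted p 5.82e-05). Contig188202DeNovoAssembly (6774 bases) had 2.78 and 2.31 CPM in the male and the female parent, against 4.62 to 13.2 CPM in the progeny, a log2 fold change of -1.81 (SE 0.31, edgeR adjusted p 0.000137). Its small RNA was dense, at 37.7 CPM per kb in the male parent and 22.6 CPM per kb in the female parent. Contig298802DeNovoAssembly (6033 bases) had 35.2 and 34.2 CPM in the male and the female parent, against 54.2 to 134 CPM in the progeny, a log2 fold change of -1.24 (SE 0.24, edgeR adjusted p 0.000599). None of the 3 overlapped between parents and progeny.

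The longest contigs showed how unlike in their generation difference neighbours in length can be. Contig183893DeNovoAssembly, the longest at 21792 bases, had 43.4 CPM in the male parent and 54.2 CPM in the female parent, inside the 26.3 to 65.8 CPM of the progeny, and its log2 fold change of 0.21 (SE 0.21, edgeR adjusted p 0.475) did not pass. Contig184273DeNovoAssembly, at 21591 bases, had 574 CPM in the male parent and 682 CPM in the female parent, against 88.4 to 232 CPM in the progeny, a log2 fold change of 2.22 (SE 0.20, edgeR adjusted p 1.13e-07). Per 1000 bases, the mean level of the parents was 29.1 CPM for this contig, against 7.17 CPM in the progeny. The first of these contigs overlapped between the generations and the second did not.

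Of the next 3 in length, Contig183709DeNovoAssembly (19461 bases) had 20.3 CPM in the male parent and 29.9 CPM in the female parent, within the 9.77 to 31.96 CPM of the progeny. Contig183610DeNovoAssembly (19186 bases) had 153 and 178 CPM in the male and the female parent, against 67.1 to 128 CPM in the progeny, a log2 fold change of 0.98 (SE 0.13, edgeR adjusted p 5.63e-06). Contig183543DeNovoAssembly (18454 bases) had 220.5 and 314 CPM in the male and the female parent, against 76.5 to 158 CPM in the progeny, a log2 fold change of 1.50 (SE 0.17, edgeR adjusted p 1.34e-06). Of the 5 longest contigs, 3 were thus above all progeny in both parents. The same held for 34.0% of the long contigs tested and 9.22% of all contigs tested.

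Of the 5 contigs of highest level per kilobase, 0 were called higher in the parents and 3 lower. Over all contigs tested, 15.5% were called higher and 14.4% lower. Among the 26 long contigs at 16 to 64 CPM per kb, 7 were higher (26.9%) and 4 lower (15.4%), so these 5 do not stand for the abundant long contigs. Contig106842DeNovoAssembly (6915 bases) led with a mean of 31.2 CPM per kb over 19 libraries, and its log2 fold change, parents over progeny, was -0.08 (SE 0.10, edgeR adjusted p 0.56). Contig389333DeNovoAssembly (7074 bases, 28.8 CPM per kb) had a log2 fold change of 0.51 (SE 0.20, edgeR adjusted p 0.0575) and did not pass. The other 3 were called lower in the parents. These were Contig195600DeNovoAssembly, given above at 28.5 CPM per kb, and Contig117402DeNovoAssembly (6234 bases, 28.6 CPM per kb) with a log2 fold change of -0.35 (SE 0.12, edgeR adjusted p 0.0251). The third was Contig188371DeNovoAssembly (7744 bases, 27.7 CPM per kb), with 132 CPM in the male parent and 166 CPM in the female parent against 189 to 251 CPM in the progeny (log2 fold change -0.40, SE 0.10, edgeR adjusted p 0.00406).

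Between the sexes a single long contig differed. In the same fit, male over female with generation as a term, 1 of 1001 long contigs passed and was lower in males, and 0 were higher. Of all 63600 contigs tested, 0.0377% were called lower and 0.0126% higher in males. A share of 1 in 1001 is 0.0999%, which is a single call above that background and no basis for a statement about the class. The count was 20 with no count filter (3 higher, 17 lower), 4 with DESeq2, 3 without daughter 9 and 2 without son 6. The calls over all contigs rose in these fits too, from 8 higher and 24 lower in the reported fit. They were 154 higher and 219 lower with no count filter, and 15 and 74 with DESeq2. Without daughter 9 they were 11 and 44, and without son 6 they were 12 and 37.

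The contig was Contig186568DeNovoAssembly (8155 bases). In males it had 3.17 to 8.77 CPM with a median of 6.26 CPM (8 sons and the male parent), against 9.37 to 18.2 CPM with a median of 12.1 CPM in females (9 daughters and the female parent). Males and females did not overlap, and each parent was the highest of its own sex, at 8.77 CPM in the male parent and 18.2 CPM in the female parent. The log2 fold change was -1.12 (SE 0.16, edgeR adjusted p 0.00233), and over 28 alternative fits it stayed between -1.18 and -1.04 with adjusted p up to 0.0415. The counts behind it were 23 to 106 in males and 34 to 126 in females. It was the only long contig without overlap between the sexes, where 6 of all contigs tested were below every female in every male. It was also higher in the parents, with a log2 fold change of 0.81 (SE 0.25, edgeR adjusted p 0.0151), and its small RNA was alike in both parents, at 3.79 CPM per kb in the male parent and 4.02 CPM per kb in the female parent (ratio 0.943, 95% interval 0.833 to 1.07).

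Below the threshold the long contigs leaned toward lower levels in males. Their median log2 fold change, male over female, was -0.17 (quartiles -0.35 and -0.002), against -0.002 for the contigs of 1000 to 2000 bases and -0.0002 for all contigs tested. Only 244 of 1001 long contigs were above 0. At an unadjusted p under 0.05 there were 192 (19.2%; 7.53% of all contigs tested), 7 higher and 185 lower in males. The median over the contigs tested in a length range fell with length. It was 0.04 at 200 to 500 bases, -0.10 at 4000 to 6000 and -0.19 at 10000 bases or more. Library totals moved with sex, from 5823321 to 15314430 counts in males and from 3527282 to 6963244 counts in females, and their part in this lean was not tested. With the 17 progeny alone the median of the long contigs was -0.14, without daughter 2 it was -0.11, and without son 8 it was -0.12. With no count filter it was -0.10, and the median of all contigs was then -0.04, so the gap between them was -0.05, against -0.16 in the reported fit. Daughter 2 had the highest share of counts on long contigs among the progeny (3.37%) and son 8 the lowest (2.10%).

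The sex difference was not shown to depend on the generation. In a fit with sex, generation and their product, 0 of 1001 long contigs passed for the product (0% of all contigs tested), and 8 had an unadjusted p under 0.05 (0.799%; 3.32% of all contigs tested). DESeq2 and edgeR with another scaling also gave 0. With 1 parent of each sex, this comparison rests on 2 parent libraries.

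Among the 17 progeny, long contigs varied about as much as the contigs of 1000 to 2000 bases, but more when contigs of like counts were compared in the middle of the range. The coefficient of variation (CV, the SD over the mean of the CPM across progeny) had a median of 0.289 over 1001 long contigs and 0.286 over 16822 contigs of 1000 to 2000 bases, both at a mean count of at least 10. At mean counts of 30 to 100 the median CV was 0.323 for 483 long contigs and 0.264 for the shorter class. At 100 to 300 counts it was 0.261 for 296 long contigs and 0.176 for the shorter class, and at 300 to 1000 counts 0.167 for 143 long contigs and 0.145. At 10 to 30 counts the order was the other way, with 0.404 for 62 long contigs and 0.420 for the shorter class, and likewise at 1000 to 3000 counts with 0.123 for 17 long contigs and 0.140 for 21 of the shorter class. Contigs of like counts differ in level per kilobase between the classes, and the part of level was not tested.

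**Figure D3:**
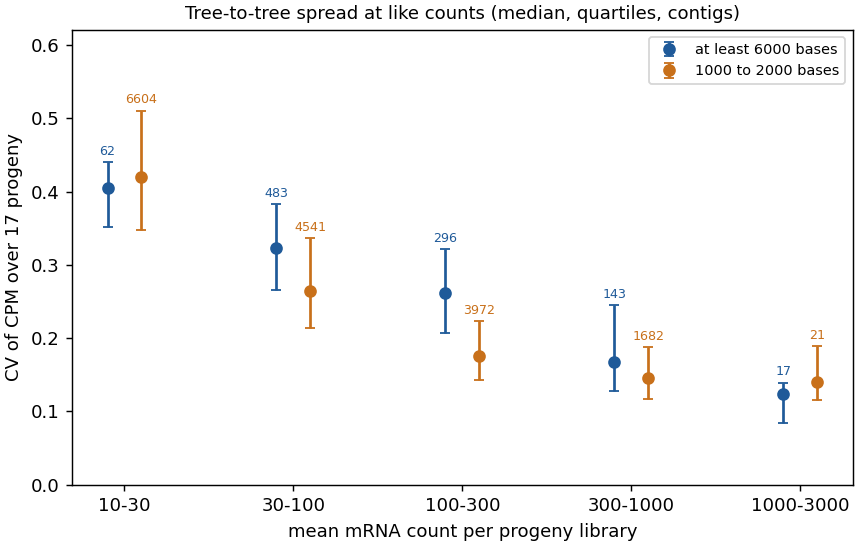
Median CV of CPM over the 17 progeny (points) with quartiles (bars) in ranges of mean mRNA count per progeny library, for long contigs and contigs of 1000 to 2000 bases, with the number of contigs above each bar. At 100 to 300 counts the long contigs have a median CV of 0.261 against 0.176 in the shorter class, and the classes are close at the lowest and highest counts.

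The steadiest long contigs hardly moved between trees. Contig186805DeNovoAssembly had a CV of 0.0503 over the progeny (104 to 125 CPM), Contig183889DeNovoAssembly (7999 bases) one of 0.056 (34.5 to 41.4 CPM) and Contig187009DeNovoAssembly (11450 bases) one of 0.0643 (99.9 to 127 CPM). Contig183889DeNovoAssembly was higher in the parents, at 45.2 CPM in the male parent and 41.9 CPM in the female parent (log2 fold change 0.38, SE 0.11, edgeR adjusted p 0.00814). Contig187009DeNovoAssembly had 98.5 and 97.2 CPM in the male and the female parent, under every progeny value, while on the TMM scale of the fit its log2 fold change was -0.06 (SE 0.10, edgeR adjusted p 0.685).

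At the other end, 6 long contigs had a CV above 1 (0.599%; 0.751% of all contigs with a mean count of at least 10). Contig389163DeNovoAssembly (7348 bases, CV 1.61) had 5.41 CPM in the male parent and 16.6 CPM in the female parent, against 1.33 to 459 CPM in the progeny with a median of 39.8 CPM. Daughter 5 alone reached 459 CPM, and the next highest value was 122 CPM in son 3. Contig186809DeNovoAssembly (6870 bases, CV 1.17) fell into high and low trees, with 22.4 CPM in the male parent and 0.433 CPM in the female parent. In sons it was at 33.5 and 53.9 CPM in sons 2 and 6 and at 0.893 CPM or lower in the other 6. In daughters it was at 20.4 to 69.8 CPM in 6 trees and at 0.372 to 1.13 CPM in the other 3. Contig183990DeNovoAssembly (8070 bases, CV 1.15) was like in both parents, at 7.60 CPM in the male and 8.23 CPM in the female parent, and ran from 0 to 30.4 CPM in the progeny. None of these 3 differed between the sexes or the generations past the adjusted threshold, with edgeR adjusted p between 0.305 and 0.986.

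Contig185571DeNovoAssembly (6100 bases, CV 1.13) ran unevenly over the sexes without passing the test. It had 2 counts in the male and 190 in the female parent. In sons it had 77 to 139 counts in 7 of 8 trees and 2 counts in son 2. In daughters it had 107 counts in daughter 3 and 0 to 4 counts in the other 8. Most sons were thus high and most daughters low, while the parents stood the other way round. The log2 fold change, male over female, was 1.89 (SE 1.00, edgeR adjusted p 0.708). That fit has a single sex term for parents and progeny, so it joins 2 opposed differences. In the fit with the product of sex and generation, the product term of this contig was -8.82 (SE 3.54). It rests on 1 parent of each sex, and no long contig passed for it.

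In 4 long contigs some trees had no count at all while others had many. The rule was 0 counts in at least 3 progeny and at least 10 counts in at least 3, and 4 of 1001 met it (0.400%), against 0.964% of all contigs with a mean count of at least 10 and 0.803% of those of 1000 to 2000 bases. By this rule the share was thus lower among the long contigs. The rule asks for exact 0 counts, and the median count per library was 38 to 241 for long contigs against 4 to 23 for the shorter class. Contig186809DeNovoAssembly (at least 10 counts in 8 progeny, 0 counts in 0) and Contig185571DeNovoAssembly (8 and 2) did not meet it. The shares cannot show which class is richer in on/off contigs, and the part of the counts was not tested.

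Contig186441DeNovoAssembly (8294 bases) had the highest CV of all long contigs, 1.77, and was the only one that the count filter removed before the tests. The male parent had 258 counts and the female parent 0, which allows up to 0.433 CPM. Among sons, son 6 had 242 counts and son 8 had 211, and the other 6 had 0 or 1. Among daughters, daughters 1, 4 and 6 had 152, 245 and 354 counts, and the other 6 had 0 to 2. The high trees were of both sexes, and 5 of 17 progeny stood with the male parent.

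Contig185315DeNovoAssembly (7410 bases) showed the reverse in the parents, with 0 counts in the male parent, which allows up to 0.439 CPM, and 142 in the female parent. Among sons, sons 2, 3 and 6 had 168, 140 and 270 counts and the other 5 had 0. Among daughters, 5 had 75 to 134 counts, 3 had 0 and daughter 8 had 4. Small RNA on this contig was lower in the male parent, at 2.17 CPM per kb, than in the female parent, at 5.24 CPM per kb (ratio 0.414, 95% interval 0.356 to 0.481), so the parent with no mRNA count still had small RNA on it.

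Contig184412DeNovoAssembly (7053 bases) had 85 counts in the male and 148 in the female parent, while sons 1 and 4 and daughter 4 had 0. The other progeny had 4 to 94 counts, and its levels in the parents, 12.4 and 21.4 CPM in the male and the female parent, were above all 17 progeny (log2 fold change 2.46, SE 0.75, edgeR adjusted p 0.0195). Contig187582DeNovoAssembly (6975 bases) had 110 counts in the male and 2 in the female parent. Among sons it had at least 263 counts in 6 trees, 3 in son 3 and 0 in son 1, and among daughters 187 to 421 counts in 6 trees, 1 in daughter 5 and 0 in daughters 4 and 8. The 4 contigs were not all on in the same trees. Contig186441DeNovoAssembly and Contig185315DeNovoAssembly were both on in 3 progeny, both at 0 in 4, and in 7 progeny 1 was on while the other was at 0. Contig185315DeNovoAssembly and Contig184412DeNovoAssembly were both on in 7 and both at 0 in 2. The first was on with the other at 0 in 1, and the reverse held in 5. Contig184412DeNovoAssembly and Contig187582DeNovoAssembly were on in more nearly the same trees. Both were on in 10 and both at 0 in 2, and each was on with the other at 0 in 1.

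**Figure D4:**
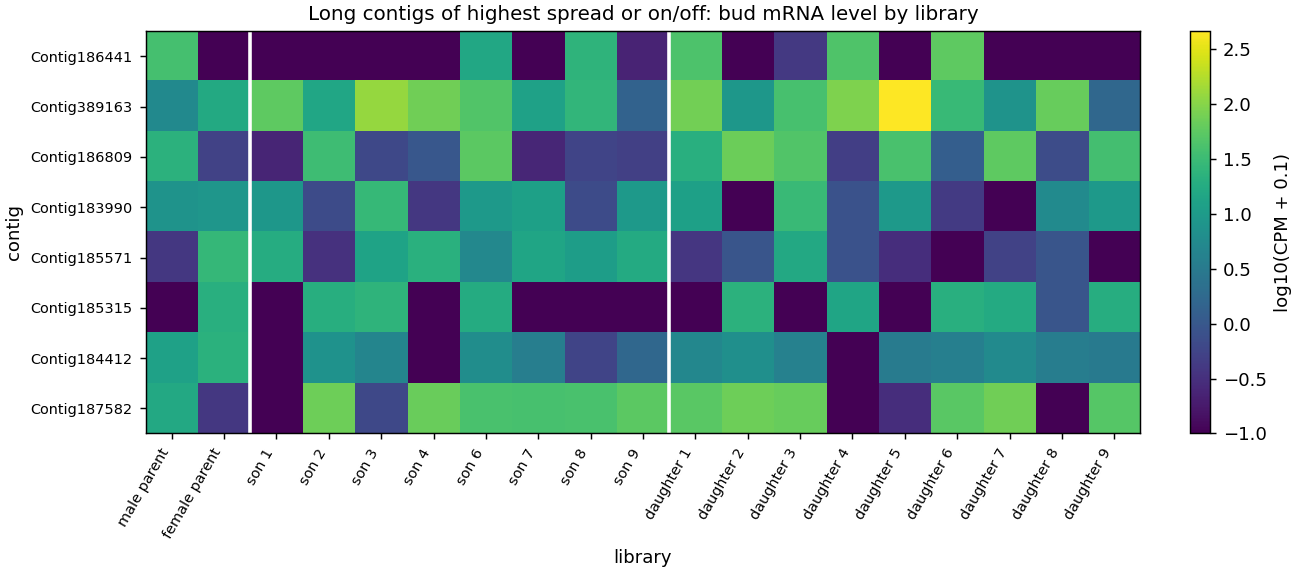
Bud mRNA level, as log10 of CPM plus 0.1, of the 5 long contigs of highest CV and the 4 on/off contigs (8 in all, since Contig186441DeNovoAssembly is both) in each of 19 libraries, in columns, with white lines between parents, sons and daughters. Dark cells are at or near 0 counts, and high and low trees of both sexes occur in each row. Contig185571DeNovoAssembly is high in 7 of 8 sons and in 1 of 9 daughters.

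Small RNA per kilobase was denser on the long contigs. The median over the 1002 long contigs was 0.959 CPM per kb in the male parent and 1.05 CPM per kb in the female parent, against 0.453 and 0.401 CPM per kb on the contigs of 1000 to 2000 bases in the same 2 libraries. No long contig was at 0 in either library, while 384 contigs of 1000 to 2000 bases were at 0 in the male and 349 in the female parent. The counts per long contig had a median of 106.5 in the male and 155.5 in the female parent. The long contigs took 2.87% of small RNA counts in the male and 2.50% in the female parent. With 1 library per parent there is no replicate check and no test.

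The median small RNA per kb, as the mean of both parents, went up with length, from 0.932 CPM per kb at 6000 to 8000 bases to 1.04 at 8000 to 10000 and 1.34 at 10000 bases or more, where it was 0.427 at 1000 to 2000 bases. The pooled density, all counts over all bases, differed less, at 3.59 CPM per kb in the male and 3.13 in the female parent on long contigs, against 2.57 and 2.80 on the contigs of 1000 to 2000 bases. Without the densest contig of each class the pooled values were 2.56 CPM per kb in the male and 2.78 in the female parent on long contigs, against 2.39 and 2.65 on the contigs of 1000 to 2000 bases. The long contigs were thus higher by median and by pooled density in both libraries, with a narrower gap in the pooled values.

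The densest long contig was Contig293994DeNovoAssembly (6534 bases), with 117451 small RNA counts in the male and 53618 in the female parent. It held 28.9% of the small RNA on long contigs in the male and 11.1% in the female parent. Its density was 1269 CPM per kb in the male parent and 425 CPM per kb in the female parent, a ratio of 2.99 (95% interval 2.96 to 3.02, counting error only). Its mRNA was unremarkable, at 24.9 CPM in the male parent and 30.2 CPM in the female parent against 16.3 to 38.5 CPM in the progeny.

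The next densest contigs were far below, at up to 65.6 CPM per kb in the male parent and up to 75.05 CPM per kb in the female parent. Contig183820DeNovoAssembly, the one with the clearest excess of mRNA in the parents, had 65.6 CPM per kb of small RNA in the male and 36.5 in the female parent (ratio 1.80, 1.75 to 1.85). Contig183574DeNovoAssembly (6625 bases) had 60.5 and 69.3 CPM per kb in the male and the female parent (ratio 0.873, 0.844 to 0.903). Contig391295DeNovoAssembly (7878 bases) had 48.4 and 75.05 CPM per kb (ratio 0.645, 0.625 to 0.667), and its mRNA was lower in the parents, at 8.63 CPM in the male and 5.05 CPM in the female parent against 13.8 to 58.9 CPM in the progeny (log2 fold change -1.996, SE 0.54, edgeR adjusted p 0.00941). Contig196299DeNovoAssembly (8642 bases) had 47.0 and 45.7 CPM per kb (ratio 1.03, 0.994 to 1.06), with mRNA at 143 CPM in the male and 202 CPM in the female parent, against 48.8 to 228 CPM in the progeny (log2 fold change 1.138, SE 0.32, edgeR adjusted p 0.0128). Dense small RNA thus went with mRNA that was higher, lower or alike in the parents.

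Across long contigs the 2 parents had nearly the same small RNA profile. Spearman's rho between the male and the female parent was 0.962 over 1002 long contigs and 0.817 over the contigs of 1000 to 2000 bases, where counts per contig are lower. Between small RNA and mRNA per kb, rho over the long contigs was -0.066 in the male and -0.106 in the female parent. These are descriptions across contigs, which share their libraries.

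Differences in small RNA between the parents were few on long contigs. At least 4-fold higher in the male parent was 1 of 1002 long contigs, and 0 were at least 4-fold lower (background over all 169824 contigs with at least 10 counts 1.72% higher and 2.07% lower). At a 2-fold limit there were 10 higher and 6 lower, where 9.27% of all such contigs were higher and 10.8% lower. The ratios, male parent over female parent, had quartiles of 0.808 and 1.10. Counts per contig are far higher for long contigs, which narrows the counting error of the ratio.

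The contig past 4-fold was Contig183766DeNovoAssembly (6016 bases), with 353 small RNA counts in the male and 78 in the female parent, a ratio of 6.17 (95% interval 4.82 to 7.99). Its mRNA did not follow that ratio, with 57.3 CPM in the male parent and 51.3 CPM in the female parent, against 36.9 to 53.9 CPM in the progeny. After Contig293994DeNovoAssembly, Contig99079DeNovoAssembly (6828 bases) came next, with 116 counts in the male and 55 in the female parent (ratio 2.88, 2.07 to 4.04). Toward the female parent, Contig183990DeNovoAssembly had 55 counts in the male and 250 in the female parent (ratio 0.300, 0.220 to 0.403). Contig190065DeNovoAssembly (8602 bases) had 217 and 804 counts (ratio 0.368, 0.315 to 0.428), and Contig389163DeNovoAssembly had 11 and 40 counts (ratio 0.375, 0.173 to 0.744). The last of these rests on few counts, as its wide interval shows, and intervals cover counting error only, since PCR copies are not independent molecules.

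**Figure D5:**
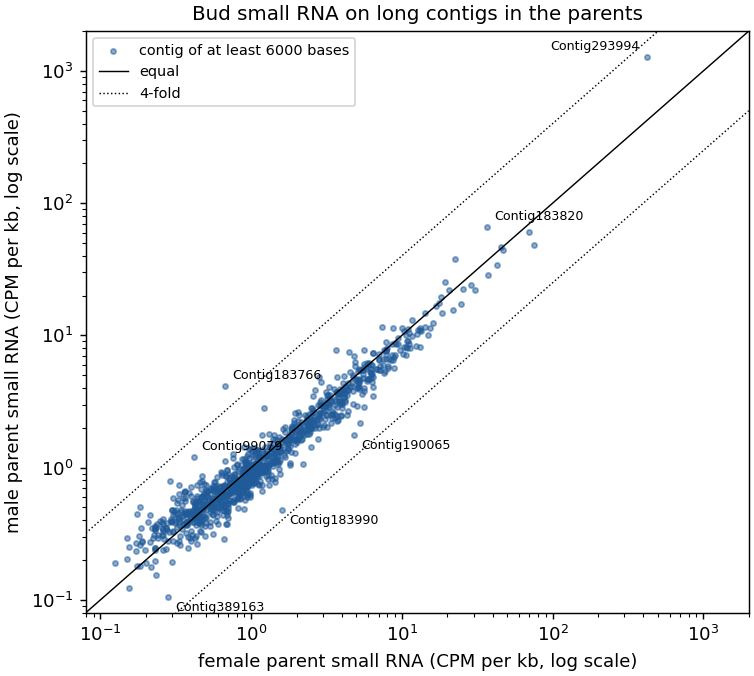
Small RNA (CPM per kb, log scales) on each of the 1002 long contigs in the male parent (vertical) and the female parent (horizontal), 1 point per contig, with the line of equality and dotted lines at 4-fold. The points follow the line over the whole range, Contig293994DeNovoAssembly lies far above the rest at 1269 and 425 CPM per kb, and Contig183766DeNovoAssembly is the single point beyond 4-fold.

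Contigs on either side of the length limit were alike in kind. Just inside it, Contig296580DeNovoAssembly (6000 bases), Contig388912DeNovoAssembly (6001 bases) and Contig187322DeNovoAssembly (6003 bases) had mean mRNA levels of 2.35, 1.19 and 1.49 CPM per kb and log2 fold changes, parents over progeny, of 0.59, 0.47 and 1.33. Just outside it, Contig185232DeNovoAssembly (5999 bases), Contig184825DeNovoAssembly (5998 bases) and Contig296876DeNovoAssembly (5995 bases) had 2.98, 1.71 and 1.23 CPM per kb and log2 fold changes of 0.30, 0.09 and 1.31. The values of the 2 trios overlapped in both measures.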

How the data were processed

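The authors deposited a table of raw mRNA counts per contig for 20 bud libraries and a table of contig lengths with raw small RNA counts, per the file headers. The submitters' processing notes list BWA, R 3.0.1 and DESeq 1.14, with no role stated; how contigs were assembled and whether counting used strand is not given in the sources used here. Per the labels' protocols, mRNA was bead-purified and primed at random, and small RNA libraries had 12 PCR cycles. Flower small RNA was not analysed here.

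Contigs were joined by name. The library of son 5 (387 counts on 224 contigs) was left out. CPM is counts per 1000000 library counts. The whole count table was fitted with edgeR 4.0.16 (TMM scaling, filterByExpr by sex, robust quasi-likelihood test, sex and generation as terms), in R 4.3.3, with Benjamini-Hochberg adjustment over 63600 contigs and a threshold of 0.05; SE is the log2 fold change over the root of F. Of the long contigs, 1001 passed the count filter. DESeq2 1.42.0 and limma 3.58.1 were alternatives, and tables were made in Python 3.11.15 with pandas 2.3.3 and scipy 1.17.1. The scripts were tested on simulated data. Ratios of small RNA have exact conditional binomial 95% intervals; a count of 0 allows 3 counts.

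The closest pair of 171 library pairs (son 7 and son 9) had a mean chi-square of 3.26, above sampling noise, so no library was merged. Named contigs are those called between the sexes, the 5 of lowest p in each direction between generations, the 5 longest, the 5 of highest level, the 5 of highest and 3 of lowest CV, the 5 densest in small RNA, the 3 most extreme small RNA ratios each way, the on/off contigs and the 3 on each side of 6000 bases. The members and lists were chosen with earlier results of these data known. RefSeq names were looked up in assembly ASM1463336v1.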

Additional observations from a re-analysis of the deposited data

Results flagged for a closer look

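A gap wide against the range of the group singled out 10 values of named long contigs, in 80 groups of sons or daughters examined (12.5%). For independent, normally distributed values the rule would flag about 1 in 20 groups. The contigs were named from the same data, some for wide spread, and share libraries. The share of 12.5% thus does not measure an excess over chance. Daughter 2 held 4 of the 10 values. It had 16.0 CPM of Contig388096DeNovoAssembly (other daughters 2.84 to 8.72 CPM), 6.48 CPM of Contig189033DeNovoAssembly (1.11 to 3.72 CPM), 228 CPM of Contig196299DeNovoAssembly (50.5 to 135 CPM) and 19.2 CPM of Contig190065DeNovoAssembly (4.54 to 11.4 CPM). In all 4 it was the highest daughter. Daughter 2 also had the largest share of counts on long contigs among the progeny, 3.37%.

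Daughter 3 had 30.4 CPM of Contig183990DeNovoAssembly (other daughters 0 to 11.9 CPM) and 16.2 CPM of Contig185571DeNovoAssembly (0 to 0.826 CPM), and son 3 had 28.5 CPM of Contig183990DeNovoAssembly (other sons 0.298 to 12.1 CPM). Daughter 5 had 459 CPM of Contig389163DeNovoAssembly (other daughters 1.58 to 90.1 CPM). Daughter 9 was low for Contig183709DeNovoAssembly, at 9.77 CPM (other daughters 21.05 to 31.96 CPM), and son 7 was low for Contig106842DeNovoAssembly, at 195 CPM (other sons 218 to 238 CPM). Of these, Contig183990DeNovoAssembly, Contig185571DeNovoAssembly and Contig389163DeNovoAssembly had been named for their wide spread among the progeny.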

How the results depend on the processing

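Between the sexes, the count of long contigs called was 1 in the reported fit, 20 with no count filter (3 higher and 17 lower in males) and 4 with DESeq2. It was 4 over contigs of at least 5000 bases, and leaving out 1 library at a time it was 1 to 3. Over all contigs 8 were higher and 24 lower as reported, 154 and 219 with no count filter, and 15 and 74 with DESeq2. Beyond Contig186568DeNovoAssembly, DESeq2 called Contig184481DeNovoAssembly, Contig188878DeNovoAssembly and Contig199164DeNovoAssembly, all lower in males and named after their values were seen; the first was also called without son 6 (2 calls), and the first and second without daughter 9 (3 calls). Between parents and progeny, the count was 542 as reported, 914 at 5000 bases or more (811 higher, 103 lower) and 219 at 8000 bases or more (209 higher, 10 lower); leaving out 1 library gave 312 to 565, with 312 without the female parent (298 higher) and 376 without the male parent (363 higher). Scaling by library totals alone gave a median of all contigs of -0.20, against -0.03 as reported, and one of 0.48 for the long contigs, a gap of 0.68 under both, and the calls among long contigs were 416 higher and 57 lower; over all contigs they were 7164 higher and 13253 lower, against 9867 and 9161 as reported. With no count filter the medians were -0.53 for all contigs and 0.42 for the long contigs, a gap of 0.95, with 392 long contigs higher and 61 lower, and 17767 and 12306 of all contigs; for males over females they were -0.04 and -0.10. Of the 10 contigs named between generations, 2 lost the call, both with all 20 libraries. The median spread of the long contigs was 0.410 as the SD of log2(CPM + 0.5) (0.385 for 1000 to 2000 bases), and as CV 0.265 at a mean count of at least 50 (0.188), 0.295 at 5000 bases or more and 0.277 at 8000 bases or more. Small RNA had a median of 0.868 CPM per kb at 5000 bases or more and 1.139 at 8000 or more, and contigs of 2000 to 3000 bases had 0.475. The number of small RNA ratios past the limit was 16 at 2-fold. The median mRNA level moved by less than the SD between libraries, 0.410 CPM per kb, under every scaling, length and progeny-only alternative run. The cause of these moves was not tested, except that a length limit changes the members. No paired analysis was possible because the replicate numbers of sons and daughters are only names. Ranges of level and the pooled density without the densest contig of each class were added after seeing the data. The number of libraries limits the parent comparison, with 2 parent libraries, and the small RNA comparison, with 1 library per parent.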

Other observations

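Long contigs differed widely in how much small RNA they carried. Of the 1002 long contigs, 189 (18.9%) had under 0.5 CPM per kb of small RNA, as the mean of both parents, against 56.2% of the contigs of 1000 to 2000 bases, and 59 (5.89%) had at least 8 CPM per kb, against 4.60%. The median mRNA level was 2.43 CPM per kb in the least dense long contigs and 2.34 in the densest, with 1.57 to 2.03 in the ranges between. The median CV over the progeny was 0.234 in the least dense and 0.370 in the densest. Of the 59 densest, 23 (39.0%) were called higher in the parents and 10 (16.9%) lower. Over the 1001 long contigs tested, 50.2% were called higher and 3.90% lower. Over all contigs tested, of any length, 15.5% were called higher and 14.4% lower. The densest were thus less often called higher than long contigs as a whole, and more often called lower. In the least dense range 71 of 189 (37.6%) were called higher and 8 (4.23%) lower. In every other range of long contigs the share called lower was below that of the densest. These are counts within 1 fit, with no test of the difference between ranges.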
